A study of Mus musculus with 16 samples.

Results

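*Elf5*, *Tfap2c*, *Rhox5*, *Rhox6*, *Rhox9*, *Wnt7b*, *Tex19.1* and *Plac1*, 8 genes of 29453 in the count matrix, were chosen by name as genes of the extra-embryonic ectoderm (ExE ectoderm) and the trophoblast. They were followed through chimeric mouse embryos collected on 3 embryonic days (E), E7.5 to E9.5, in which cells lacking *Stat3* developed beside wild-type (WT) cells. *Stat3* encodes a transcription factor activated by cytokine receptors. The null cells came from *Stat3* null embryonic stem cells (ESCs) of CD1 background, and the number of lines injected is not given in the sources used here. The ESCs also carried an H2B-tdTomato reporter under the CAG promoter, which every null library therefore has and no WT library has. These ESCs were injected into WT CD1 blastocysts, and dissociated whole chimeras were sorted into tdTomato-positive (null) and tdTomato-negative (WT) cells. Each genotype had 2 libraries at E7.5, again 2 at E8.5, and 4 at E9.5. The labels give about 10 pooled embryos per library at E7.5, about 4 at E8.5 and 1 at E9.5. The study graded E7.5 embryos by size before they were pooled, so the E7.5 libraries of a genotype may differ in embryo size as well. The libraries of a group are called A to D, and a letter is only a name. The study's own account has fewer E9.5 embryos than libraries of a genotype, so by it some libraries share an embryo. At E9.5 n therefore counts libraries, and p-values at that stage may be too small. Chimeras made with WT ESCs were not analysed here, so the genotype, the ESC origin and the reporter cannot be told apart.

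The ExE ectoderm descends from the trophectoderm, the outer layer of the blastocyst, and gives rise to the chorion and, through the ectoplacental cone, to much of the placenta. Injected ESCs join the inner cell mass and as a rule contribute little to the trophoblast, so the trophectoderm of a chimera is that of its host. ELF5 is a transcription factor that sustains trophoblast stem cells, and methylation of its promoter silences it in the embryonic lineage. TFAP2C is an AP-2 transcription factor of the trophoblast, the surface ectoderm and primordial germ cells (PGCs). The *Rhox* genes are a cluster of homeobox genes on the X chromosome that are active in extra-embryonic tissues and the germline. *Wnt7b* encodes a secreted Wnt ligand needed for the chorion to fuse with the allantois, and *Tex19.1* a cytoplasmic protein that restrains retrotransposons in germ cells and the placenta. *Plac1* encodes a secreted or membrane-bound protein of the trophoblast that placental growth depends on.

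UMI counts (unique molecular identifiers, which tag single captured RNA molecules) were available for 37841 analysed cells of 87 cell types, with 360 to 4327 cells and 20682659 to 138613245 UMIs per library. Levels are given as CPM, the UMIs of a gene per 1000000 UMIs of a library or of a cell type within it. As reads come from the 3′ end of transcripts, they carry no scaling for length, and levels of different genes are not ranked. As a check of the labels, *Stat3* was at 6.14 to 9.31 CPM in the 8 WT libraries and at 1.16 to 2.53 CPM in the 8 null libraries. A tdTomato UMI was found in 72.3% to 98.3% of null cells. *Xist*, the transcript of the inactive X, was found in 0.275% to 99.7% of the cells of a WT library and in 0.277% to 8.09% of those of a null library. The sexes of the embryos thus differed between libraries, and *Rhox5*, *Rhox6*, *Rhox9* and *Plac1* are X-linked. E9.5 WT libraries C and D shared 375 cell barcodes against 12 in the next of 120 library pairs. *Xist* was found in 99.7% of these barcodes in C and in 0.533% in D, and 10 of the 325 that were singlets in both carried the same cell type.

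*Elf5* lies on chromosome 2 (GRCm38, chr2:103411688-103450989, plus strand), as does *Tfap2c* (chr2:172549593-172558622, plus strand). *Rhox5* (chrX:37804842-37808876, plus), *Rhox6* (chrX:37826910-37829857, plus) and *Rhox9* (chrX:37899097-37901770, minus) are neighbours on the X chromosome, and *Plac1* lies farther along it (chrX:53069995-53240111, minus). *Wnt7b* is on chromosome 15 (chr15:85535437-85582473, minus), where it overlaps the antisense gene *AU022754*. The 3′ chemistry used keeps the strand of the RNA. *Tex19.1* is on chromosome 11 (chr11:121146143-121148319, plus). *Rhox* genes have close paralogues within the cluster, as *Tex19.1* has in *Tex19.2*, so reads of near-identical stretches may be split or lost.

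The RefSeq promoter table (GRCm38.p6) matched 4 of the 8 genes, with 6 windows of 250 bases before a transcription start. *Tfap2c*, *Rhox6*, *Rhox9* and *Wnt7b* were not matched. Because several of these genes are known to be silenced by DNA methylation in the embryo proper, 3 windows are printed 5′ to 3′ on the strand of the gene, with each CG, the dinucleotide that is methylated, in capitals. They are *Elf5* at chr2:103423818-103424067 (plus strand), *Tex19.1* at chr11:121145893-121146142 (plus strand) and *Plac1* at chrX:53240111-53240360 (minus strand).
Elf5: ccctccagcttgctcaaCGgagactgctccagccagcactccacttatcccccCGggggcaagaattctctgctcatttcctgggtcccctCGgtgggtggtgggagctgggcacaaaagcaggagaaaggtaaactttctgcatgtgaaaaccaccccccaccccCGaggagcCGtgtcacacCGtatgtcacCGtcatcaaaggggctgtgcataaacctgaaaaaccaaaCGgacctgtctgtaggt
Tex19.1: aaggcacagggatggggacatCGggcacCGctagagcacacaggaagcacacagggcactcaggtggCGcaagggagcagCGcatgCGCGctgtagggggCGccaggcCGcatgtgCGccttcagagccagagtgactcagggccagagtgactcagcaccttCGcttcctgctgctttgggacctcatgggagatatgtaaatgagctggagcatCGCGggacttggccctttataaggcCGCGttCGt
Plac1: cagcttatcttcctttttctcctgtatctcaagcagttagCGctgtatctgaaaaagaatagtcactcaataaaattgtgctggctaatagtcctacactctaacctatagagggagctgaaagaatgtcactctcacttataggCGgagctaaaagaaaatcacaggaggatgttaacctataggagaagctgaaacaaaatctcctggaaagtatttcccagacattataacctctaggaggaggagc
The *Elf5* window held 8 CG, and 43.0% of all 32841 promoter windows held at least as many. The *Tex19.1* window held 15 (27.3% of windows held as many) and the *Plac1* window 2 (81.2%), against a median of 6. The other windows of *Elf5* and *Plac1* held 2 and 4. The window listed for *Rhox5* (chrX:37754358-37754607) held 4 CG and lies well upstream of the locus given above. The letters GCCNNNGGC, read by TFAP2 factors, occurred in 13.7% of all windows and in none of the 6. The letters TTCNNNGAA, read by STAT factors, occurred in 7.02% and in none of the 6. Both motifs read the same on either strand, and neither contains the other.

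In WT E7.5 libraries 281 cells carried the label ExE ectoderm, 114 in library A and 167 in B. All 8 marker genes of this tissue were detected there, with a summed level of 886 and 940 CPM. The PGC list, which shares *Tfap2c*, summed to 214 and 220 CPM, and the list of the allantois and mesenchyme, which shares *Bmp4*, to 377 and 248 CPM. Markers of the visceral endoderm summed to 22.5 and 54.1 CPM and those of blood to 21.1 and 13.7 CPM. The epiblast list summed to 843 and 895 CPM, of which *Dnmt3b* and *Utf1* were the largest part. Cell types are the authors' labels, transferred from an atlas by expression, so a type set against the others is a description and not a test.

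*Elf5* was at 226 CPM in ExE ectoderm of library A and 262 in B, or 244 ± 25.4 CPM (mean ± SD, n = 2). The next of the 18 cell types with at least 20 WT cells, the epiblast, was at 2.66 CPM. Of all *Elf5* UMIs, 98.4% in A and 95.2% in B lay in cells with this label. *Elf5* thus marked the tissue more narrowly than any other of the 8 genes in these libraries. *Tfap2c* was at 154 and 120 CPM (137 ± 24.5, n = 2), with non-neural ectoderm next at 30.2 CPM. PGCs were too few to be ranked, and 4 of 6 had a *Tfap2c* UMI after thinning to 10000 UMIs. The label held 89.2% and 76.3% of its UMIs.

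Of the *Rhox* genes, *Rhox5* was at 1615 and 1605 CPM in ExE ectoderm (1610 ± 7.08, n = 2). It was also high in ExE endoderm (940 CPM) and visceral endoderm (852 CPM), and at or below 34.6 CPM in every other type. *Rhox6* was at 69.3 and 48.2 CPM (58.8 ± 15), with visceral endoderm next at 17.5 CPM. *Rhox9* was at 35.2 and 30.5 CPM (32.8 ± 3.31), with visceral endoderm at 1.22 CPM. The share of UMIs in ExE ectoderm was 87.7% and 75.1% for *Rhox5*, 93.1% and 80.4% for *Rhox6*, and 90.4% and 93.5% for *Rhox9*.

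*Wnt7b* was at 110 and 105 CPM in ExE ectoderm (108 ± 4.00, n = 2), with ectoderm next at 1.34 CPM, and the label held 97.7% and 93.6% of its UMIs. *Tex19.1* was at 186 and 145 CPM (166 ± 28.5), with visceral endoderm next at 27.7 CPM, and the label held 95.3% and 88.7%. In both libraries these genes had ExE ectoderm as their highest type among those ranked, which leave out PGCs. *Plac1* was the exception. Its 19.4 and 6.48 CPM in ExE ectoderm (12.9 ± 9.10) placed this type after ExE endoderm (46.0 CPM), mesenchyme (36.1 CPM) and lateral plate mesoderm (24.5 CPM). ExE ectoderm held 25.6% and 8.49% of *Plac1* UMIs.

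**Figure D1:**
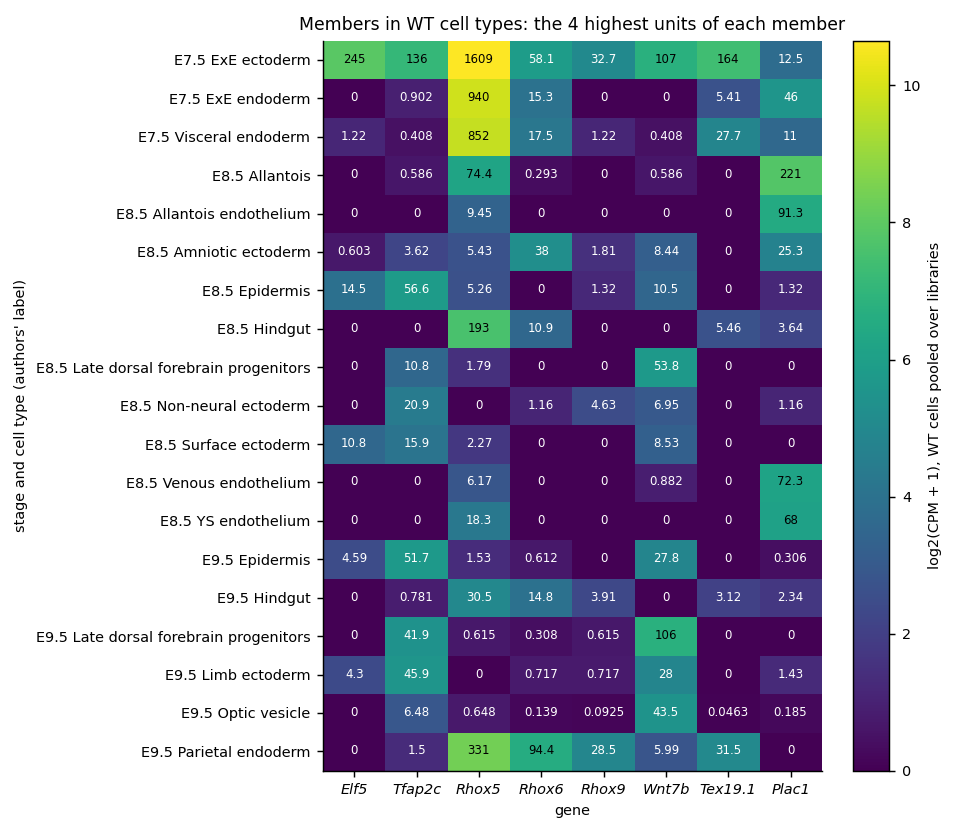
Heat map of the 8 genes (columns) over WT cell types at each stage (at least 20 WT cells, the 4 highest of each gene, rows), with colour for log2(CPM + 1) and the CPM printed, WT cells pooled over libraries. Among types with at least 20 WT cells, 6 of the 8 genes have their highest value in E7.5 ExE ectoderm, *Rhox6* has its highest in E9.5 parietal endoderm (94.4 CPM) and *Plac1* in E8.5 allantois (221 CPM).

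Cells of this label had a median of 38014 UMIs. After each cell was thinned to 10000 UMIs, *Rhox5* was detected in all 281 cells. *Elf5* was detected in 87.5% of them (exact 95% binomial interval 83.1% to 91.2%), *Tex19.1* in 76.9% (71.5% to 81.7%), *Tfap2c* in 70.8% (65.1% to 76.1%) and *Wnt7b* in 61.6% (55.6% to 67.3%). *Rhox6* was detected in 34.2% (28.6% to 40.0%), *Rhox9* in 26.0% (21.0% to 31.5%) and *Plac1* in 1.78% (0.580% to 4.10%). Unthinned, the shares were 98.9% for *Elf5*, 98.2% for *Tex19.1*, 97.5% for *Tfap2c*, 94.0% for *Wnt7b*, 73.3% for *Rhox6*, 54.8% for *Rhox9* and 3.56% for *Plac1*. In the 107 blood progenitors of the same libraries, which should lack these genes, the thinned shares were 0% for *Elf5*, *Rhox9* and *Plac1*, 0.935% for *Rhox6* and *Wnt7b*, 2.80% for *Tex19.1*, 3.74% for *Tfap2c* and 15% for *Rhox5*. Unthinned, at a median of 40131 UMIs, they were 4.67% for *Elf5* and *Plac1*, 7.48% for *Tfap2c*, 11.2% for *Tex19.1*, 3.74% for *Wnt7b*, 1.87% for *Rhox6*, 0.935% for *Rhox9* and 39.3% for *Rhox5*. The genes other than *Plac1* were thus detected far more often in ExE ectoderm. For *Plac1* the unthinned share was no higher in ExE ectoderm than in blood progenitors, and the 0 of 107 thinned cells allows up to 2.80% (3 counts), above its 1.78%, so by share of cells it was not above background. Its UMIs were not spread as single counts. Intervals and limits cover counting error only.

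Among the single cells, 112 had a UMI of 6 of the 8 genes and 106 of 7, while 53 had 5, 4 had 4 and 6 had all 8. The median cell had 247 CPM of *Elf5* (quartiles 161 and 319), 124 of *Tfap2c*, 1561 of *Rhox5*, 41.9 of *Rhox6*, 20.7 of *Rhox9*, 98.8 of *Wnt7b* and 151 of *Tex19.1*. Single cells reached 666 CPM of *Elf5*, 4535 of *Rhox5* and 613 of *Rhox9*. *Elf5* and *Rhox5* had a Spearman correlation over cells of 0.478 in library A (114 cells) and 0.127 in B (167 cells). In cells thinned to equal depth it was 0.309 and 0.119. The neighbouring genes *Rhox6* and *Rhox9* had 0.281 and 0.246, and 0.128 and 0.263 at equal depth. *Elf5* and *Tfap2c* had −0.189 and −0.199, and −0.162 and −0.165 at equal depth. These values describe cells that share a library, and the low ones are no finding in counts this sparse.

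**Figure D2:**
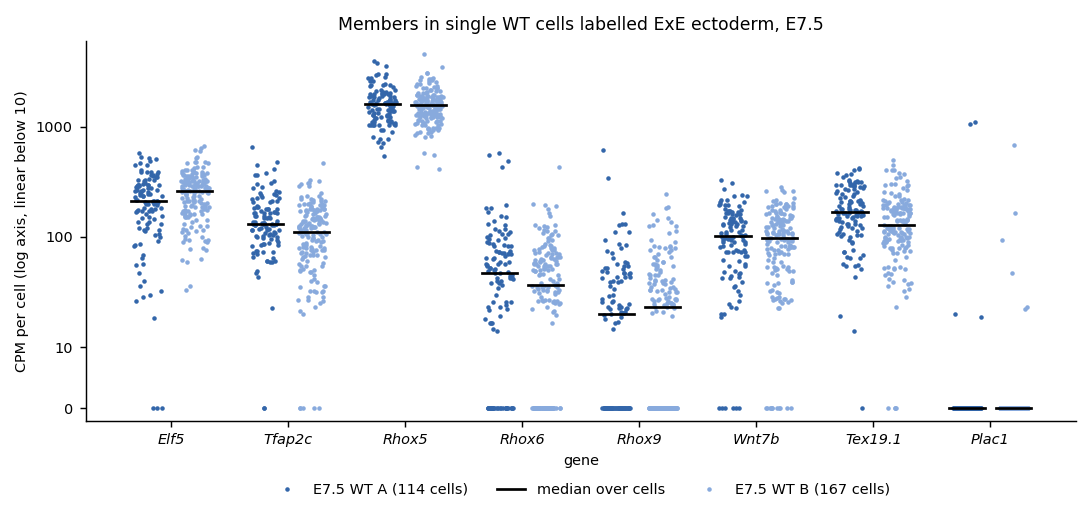
Level of each gene (CPM per cell, log axis that is linear below 10) in single WT E7.5 cells labelled ExE ectoderm, 1 point per cell, by library, with the median as a bar. *Rhox5* is above 0 in all 281 cells, and *Plac1* is at 0 in all but 10.

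*Plac1* in ExE ectoderm came from very few cells. Of its 135 UMIs, 129 (95.6%) lay in 5 of the 281 cells, which held 80, 22, 16, 8 and 3 UMIs. These 5 cells, picked after their *Plac1* counts were seen and so not tested, also differed from the other 276 in other genes. *Ascl2*, a factor of the ectoplacental cone, was at 333 CPM in them and at 67.2 CPM in the others. *Plac8* was at 186 against 8.80 CPM, *Phlda2* at 2914 against 939 CPM and *Hand1*, a factor of giant cells, at 700 against 174 CPM. *Tfap2c* was at 387 against 131 CPM, *Rhox6* at 348 against 52.5 CPM and *Rhox9* at 93.0 against 31.5 CPM. In contrast *Elf5* was at 127 against 247 CPM, *Wnt7b* at 34.3 against 109 CPM and *Rhox5* at 774 against 1626 CPM. The stem cell factor *Eomes* was at 4.90 against 174 CPM and *Cdx2* at 14.7 against 112 CPM. *Sox2*, *Bmp4*, *Esrrb*, *Sox21* and *Fgfr2* had no UMI in the 5 cells. Other genes of the same stem cell and chorion list went the other way, with *Satb1* at 426 against 70.4 CPM and *Ets2* at 103 against 55.1 CPM. *Gcm1*, of the cone and giant cell list, was at 0 against 1.89 CPM. The later markers *Tpbpa* and the prolactin genes of the list were at 0 in all 281. These levels were pooled over the 5 cells, 1 of which had 75996 UMIs, and not every cell shared them. *Ascl2*, *Phlda2* and *Tfap2c* had a UMI in all 5 cells, *Plac8* and *Rhox6* in 4, and *Hand1* and *Rhox9* in 3. Over all cells of the label *Plac1* and *Hand1* had a Spearman correlation of 0.233 in library A and −0.030 in B.

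Outside the ExE ectoderm the 8 genes parted ways in the WT cells of the chimeras, ranked here over types with at least 20 WT cells at a stage. *Elf5* was next highest in the epidermis at E8.5 (14.5 CPM) and E9.5 (4.59 CPM) and in E8.5 surface ectoderm (10.8 CPM). *Tfap2c* was also an epidermal gene, at 56.6 CPM in the epidermis at E8.5 and 51.4 ± 8.88 CPM (SD over libraries with over 15 cells) at E9.5. It was at 45.9 CPM in E9.5 limb ectoderm and at 41.9 CPM in late dorsal forebrain progenitors. *Wnt7b* had its highest values after the ExE ectoderm in the late dorsal forebrain (53.8 CPM at E8.5, 107 ± 29.0 CPM, n = 4, at E9.5) and in the optic vesicle at E9.5 (43.7 ± 4.37 CPM). The E9.5 forebrain mean of *Wnt7b* did not differ beyond its spread from the E7.5 ExE ectoderm value of 108 ± 4.00 CPM.

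Over the same types, *Rhox5* at later stages was highest in E9.5 parietal endoderm (331 CPM, pooled over 24 cells), E8.5 hindgut (193 CPM) and E9.5 yolk sac (YS) mesothelium (128 ± 26.8 CPM, n = 3). *Rhox6* was at 94.4 CPM in E9.5 parietal endoderm, where *Rhox9* was at 28.5 and *Tex19.1* at 31.5 CPM. In E8.5 amniotic ectoderm *Rhox6* was at 133 CPM in one WT library and at 0 in the other. *Plac1* was highest among these types in the E8.5 allantois, at 238 CPM in library A and 210 in B (224 ± 20.4, n = 2). It was at 91.3 CPM in allantois endothelium, 72.3 in venous endothelium and 68.0 in YS endothelium at E8.5. At E9.5 it was at 47.3 CPM in the allantois and 43.8 CPM in YS endothelium, each pooled over WT libraries. The allantois of WT libraries A to D was at 41.4, 10.9, 11.8 and 56.4 CPM, and D held 120 of the 167 cells, so these 2 types are not ranked.

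Few trophoblast cells were left in later libraries. In E9.5 WT library A, 9 cells carried the ExE ectoderm label, and in these *Rhox6* was at 2316 CPM (669 UMIs), *Rhox9* at 1751 CPM (506 UMIs), *Rhox5* at 1031 CPM (298 UMIs) and *Plac1* at 305 CPM (88 UMIs). *Tfap2c* was at 260 and *Tex19.1* at 187 CPM, whereas *Elf5* had 5 UMIs (17.3 CPM) and *Wnt7b* 3 UMIs (10.4 CPM). With 1 library there was no test against E7.5. Sorted null cells held only 2 cells labelled ExE ectoderm, both in E7.5 library A, with *Rhox5* at 1351 and *Elf5* at 236 CPM. One of them had a tdTomato UMI and both had an *Xist* UMI, which 2.17% of the other cells of that library had. At E8.5 the 9 null-sorted cells labelled visceral endoderm each had a tdTomato UMI. The 7 labelled ExE endoderm had none, with *Rhox5* at 1461 and 1374 CPM in libraries A and B. At E9.5, 26 cells of null library C carried that label with *Rhox5* at 658 CPM. A tdTomato UMI was found in 25 of these 26 cells (median 210 CPM against 225 CPM in the rest of the library), and *Xist* in 80.8% of them against 6.70% of the rest. The 1 visceral endoderm cell of null library D also had a tdTomato UMI, whereas the 2 extra-embryonic cells of null library A and the 2 of null library B had none.

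PGCs were another source of *Rhox6* and *Rhox9* at E9.5, with 15 WT and 6 null cells and a share that varied between libraries. *Rhox9* was at 938 CPM in the 8 PGCs of WT library D (256 UMIs) and at 408 CPM in the 4 of null library A (70 UMIs). Of *Rhox9* UMIs outside extra-embryonic labels, PGCs held 23.3% in WT A, 91.4% in WT B, 82.1% in WT D and 95.9% in null A. For *Rhox6* the shares were 16.7%, 77.8%, 59.1% and 83.3%. *Elf5* had no UMI in any PGC.

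With all analysed cells of a library summed, the null and WT fractions of E7.5 chimeras differed in 7 of the 8 genes. *Elf5* was at 42.8 CPM in WT library A and 28.9 in B, and at 0.221 and 0.0483 CPM in null A and B. *Rhox5* was at 343 and 225 CPM in WT and at 3.55 and 1.26 CPM in null libraries. *Rhox9* was at 7.25 and 3.43 CPM in WT and at 0.0553 and 0.0483 CPM in null libraries. For these 3 genes every null library lay far below every WT library, with *Rhox9* resting on single UMIs in the null fraction.

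*Wnt7b* was at 21.1 and 11.8 CPM in WT and at 0.310 and 0 CPM in null libraries. *Tex19.1* was at 36.3 and 17.2 CPM against 0.365 and 0.145 CPM, and *Rhox6* at 13.9 and 6.30 against 0.210 and 0.0483 CPM. The genotypes lay apart here too, and 27.6% of all genes tested had null libraries below WT libraries by any margin. *Tfap2c* was at 32.3 and 16.5 CPM in WT and still at 5.55 and 5.27 CPM in null libraries, a smaller gap. *Plac1* was at 14.1 and 8.03 CPM in WT and 6.25 and 12.5 CPM in null libraries, which overlapped.

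Of 13725 genes tested, 323 (2.35%) passed an adjusted p under 0.05 with an absolute log2 fold change over 1, and 301 (2.19%) of them had lower levels in the null fraction (quasi-likelihood test of edgeR, Benjamini-Hochberg adjustment). The log2 fold change of null over WT was −7.53 for *Elf5* (SE 0.36, adjusted p = 0.000595), −6.62 for *Rhox5* (SE 0.46, adjusted p = 0.00545) and −6.50 for *Rhox9* (SE 0.57, adjusted p = 0.00266). For *Tex19.1* it was −6.35 (SE 0.54, adjusted p = 0.00783), for *Wnt7b* −6.05 (SE 0.62, adjusted p = 0.0124) and for *Rhox6* −5.79 (SE 0.59, adjusted p = 0.00783). *Tfap2c* fell by 2.10 on the log2 scale (SE 0.32, adjusted p = 0.0326). *Plac1* did not pass (−0.21, SE 0.43, adjusted p = 0.915). The null fraction held 6 UMIs of *Rhox9*, 20 of *Rhox6*, 21 of *Elf5*, 28 of *Wnt7b* and 36 of *Tex19.1*. These genes passed the count filter through the WT libraries, so only a lower level could be called and the size of their fold changes is uncertain. The median over the 8 genes was −6.20, against 0.02 over all genes tested. The genes were chosen by name for a tissue to which injected ESCs as a rule contribute little. This direction was thus given by the design, and neither the calls nor the median are a test of *Stat3*. In summed libraries fewer cells of a type and less RNA per cell cannot be told apart, and the label counts above give 281 ExE ectoderm cells in WT libraries against 2 in null libraries. Of the 8 markers of the visceral endoderm, 7 were also called lower in null libraries (median −6.14). Whether cells with that label came from the host was not tested.

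Each E7.5 call rested on 2 libraries a genotype. With no filter on low counts 3 of the 7 calls were left. In fits that left out a library, the lone library of a genotype was assumed to vary like the other groups, since all other 15 libraries were fitted together. Without null library A 3 calls were left (adjusted p = 0.0644 for *Tfap2c*, 0.342 for *Rhox6*, 0.406 for *Rhox9* and 0.0662 for *Tex19.1*), and without WT library A 4 (adjusted p = 0.0503 for *Tfap2c*). *Rhox6* and *Rhox9* also lost their calls without null B, without WT B and with all 16 libraries in 1 fit. The 7 genes stayed below 0 in every setting run.

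**Figure D3:**
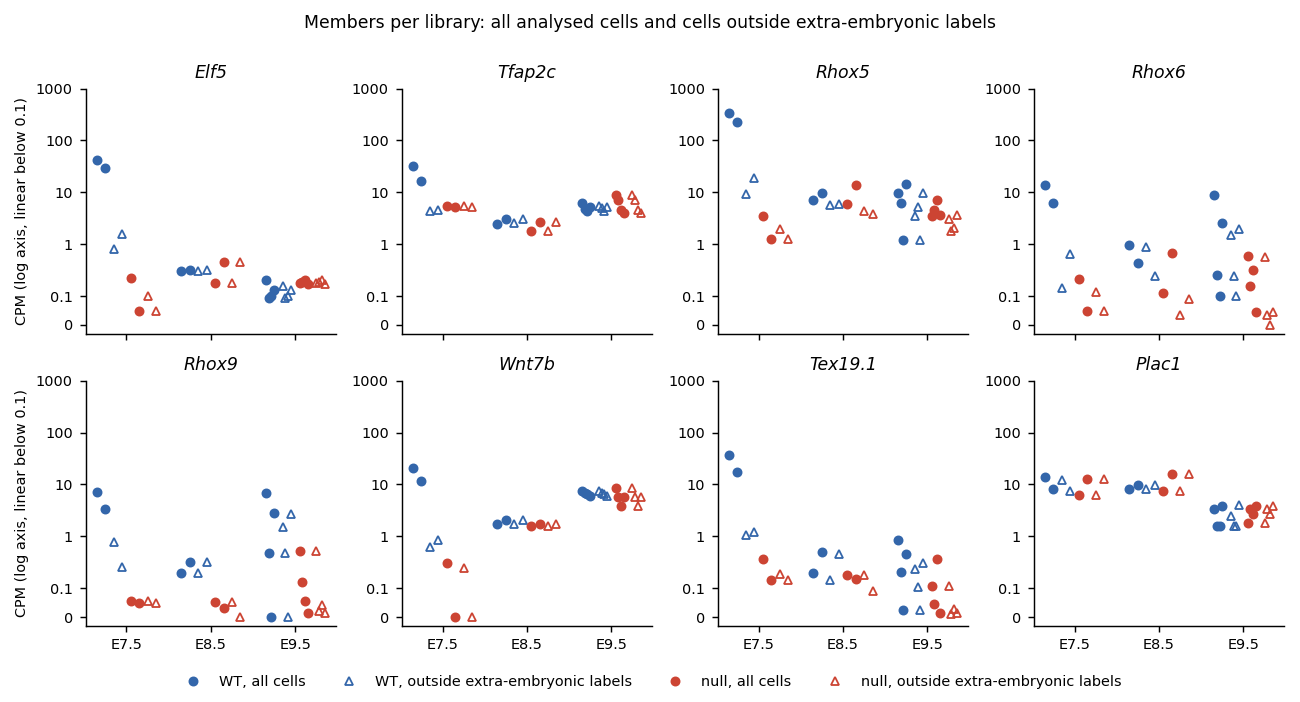
Level of each gene (CPM, log axis that is linear below 0.1) in each library by stage, in all analysed cells (filled circles) and in cells outside extra-embryonic labels (open triangles), WT in blue and null in red. At E7.5, 7 of the genes sit higher in both WT libraries than in both null libraries over all cells, and *Plac1* overlaps.

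At the later stages the fractions were closer. At E8.5 no gene of the 8 was called (4 of 14387 genes, 0.0278%, were, and 1 of the 8 had an unadjusted p under 0.05). *Rhox9* was at 0.193 and 0.321 CPM in WT and at 0.0530 and 0.0302 CPM in null libraries (log2 fold change −2.42, SE 0.59, adjusted p = 0.657), and *Wnt7b* and *Tex19.1* were also apart in this direction, as were 11.9% of all genes tested. At E9.5 none was called either (86 of 14846, 0.579%, were, and 2 of the 8 had an unadjusted p under 0.05). DESeq2 called none of the 8 at either stage. *Rhox6* was at 8.87, 0.255, 0.101 and 2.54 CPM in WT libraries A to D and at 0.606, 0.153, 0.314 and 0.0435 CPM in null libraries. Its fold change of −3.32 (SE 1.26, adjusted p = 0.378) came with overlapping groups, and WT A, the library with the 9 ExE ectoderm cells, was the highest. *Rhox9* had the same order of WT libraries A, D, B and C, with 6.84, 2.87, 0.469 and 0 CPM, and a fold change of −3.64 (SE 1.36, adjusted p = 0.368). *Xist* was found in 99.2% and 99.7% of the cells of WT B and C and in 0.325% and 0.405% of those of A and D. Its part in the X-linked genes was not tested. The other genes overlapped, with *Tfap2c* at 4.39 to 6.21 CPM in WT and 4.07 to 9.07 in null libraries, and *Wnt7b* at 6.0 to 7.49 and 3.77 to 8.60 CPM.

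Cells with an extra-embryonic label (ExE ectoderm, ExE endoderm, visceral endoderm or parietal endoderm) were then left out. At E7.5, 6 of the 8 genes were tested, and *Rhox6* and *Rhox9* fell under the filter on low counts. None was called, as were 11 (0.0825%) of 13328 genes, and 4 of the 6 had an unadjusted p under 0.05. *Rhox5* was at 9.28 and 18.5 CPM in WT A and B and at 2.0 and 1.26 CPM in null A and B (log2 fold change −3.00, SE 0.42, adjusted p = 0.157). *Elf5* was at 0.809 and 1.60 against 0.0998 and 0.0483 CPM (−3.77, SE 0.58, adjusted p = 0.113). *Tex19.1* was at 1.05 and 1.21 against 0.188 and 0.145 CPM (−2.65, SE 0.43, adjusted p = 0.136). WT libraries were thus above null libraries for these 3 genes, as for 20.1% of all genes tested, at levels a small part of those in ExE ectoderm.

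*Wnt7b* was at 0.619 and 0.867 CPM in WT against 0.244 and 0 in null libraries (−2.08, SE 0.73, adjusted p = 1.00). *Tfap2c* was at 4.43 and 4.62 against 5.50 and 5.27 CPM (0.29), and *Plac1* at 12.4 and 7.5 against 6.26 and 12.5 CPM (−0.06). *Elf5* had 91 UMIs in WT and 10 in null libraries, so it passed the count filter of the E7.5 fits through its WT libraries. Only a lower level could be called in those fits, and such a call is no support for an effect. The E7.5 calls also depended on the setting. DESeq2 called *Elf5* (adjusted p = 0.0128) and *Rhox5* (adjusted p = 1.19e-12), and edgeR called *Elf5* with all 16 libraries in 1 fit (adjusted p = 0.00599). It also did without WT library A (adjusted p = 0.00538), where the spread came from the other groups because WT B stood alone.

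The WT level outside the labels was 0.358% and 0.613% of that in ExE ectoderm for *Elf5* (libraries A and B), 0.564% and 0.835% for *Tex19.1*, 0.561% and 0.828% for *Wnt7b* and 0.575% and 1.16% for *Rhox5*. *Rhox5* had a UMI in 9 of 9 WT cell types with over 15 cells in A and in 15 of 15 in B. *Ttr*, a carrier protein of the visceral endoderm, was outside the labels at 0.151% and 0.329% of its level in that tissue, at 5.86 and 14.1 CPM in WT and 1.02 and 0.483 CPM in null libraries. The 8 markers of the visceral endoderm summed to 35.6 to 51.5 CPM in WT and 13.2 to 17.7 CPM in null libraries outside the labels, with none called and none at 0. Those of ExE ectoderm summed to 170 to 212 CPM in WT and 167 to 194 CPM in null libraries. Embryonic types express several genes of that list, with *Cdx2* at 276 CPM in caudal epiblast, *Eomes* at 267 CPM in primitive streak and *Bmp4* at 229 CPM in mesenchyme, so the sum does not follow the narrow member *Elf5*. The part of RNA from other cells in the low WT levels was not tested.

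At E8.5 none of the 8 genes was called outside the labels (5 of 14350, 0.0348%, were, and 3 of the 8 had an unadjusted p under 0.05). *Rhox5* was at 5.72 and 6.02 CPM in WT and at 4.34 and 3.80 CPM in null libraries (−0.54, SE 0.14, adjusted p = 0.729). *Rhox6* was at 0.893 and 0.242 against 0.0354 and 0.0912 CPM (−3.47, SE 0.93, adjusted p = 0.758) and *Rhox9* at 0.193 and 0.323 against 0.0532 and 0 CPM (−2.68, SE 0.76, adjusted p = 0.778). None passed. The groups lay apart for these 3 genes and for *Wnt7b* (1.75 and 2.08 against 1.59 and 1.73 CPM), as for 12.1% of all genes tested in this direction. The WT level of *Rhox6* includes amniotic ectoderm, where it was high in 1 WT library and at 0 in the other, as given above. At E9.5, 7 genes were tested and none was called (90 of 14813, 0.608%, were, and 1 of the 7 had an unadjusted p under 0.05). *Elf5* was at 0.156, 0.0939, 0.101 and 0.132 CPM in WT and at 0.180, 0.187, 0.207 and 0.174 CPM in null libraries (0.59, SE 0.25, adjusted p = 0.446). Each null library lay above each WT library, as for 3.5% of all genes tested, with all values under 1 CPM. DESeq2 called none of the genes outside the labels at E8.5 or E9.5.

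**Figure D4:**
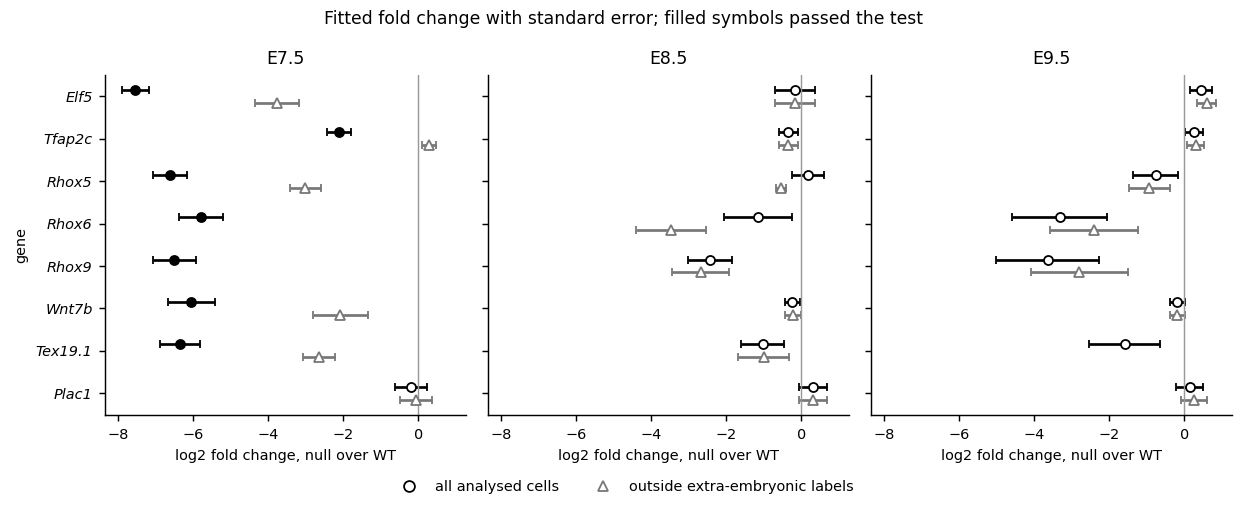
Fitted log2 fold change of null over WT (x axis, bars are standard errors) for each gene in a panel per stage, for all analysed cells (circles) and cells outside extra-embryonic labels (triangles), filled where the test was passed. Only the E7.5 all-cell values of 7 genes are filled.

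The genotype effect outside the labels was compared between stages in 1 fit over all 16 libraries. *Elf5* differed between E9.5 and E7.5 by 4.38 on the log2 scale (SE 0.63, adjusted p = 0.0317), and 4 of 15499 genes (0.0258%) passed. Its null libraries lay below the WT libraries at E7.5 and above them at E9.5, but neither stage passed in its own edgeR fit (adjusted p = 0.113 and 0.446). The values rest on 91 WT and 10 null UMIs at E7.5 and on 45 WT and 69 null UMIs at E9.5. The stages also differed in ExE ectoderm, with 281 labelled cells in the WT libraries at E7.5 and 9, in library A, at E9.5. The part of RNA from such cells in the difference was not tested. The call did not outlast most omissions of a library. It was kept when WT A of E7.5 or either null library of E8.5 was left out, and lost without any of the other 13 libraries (difference 3.74 to 5.17, adjusted p = 0.0507 to 0.462 where lost). Between E8.5 and E7.5 no gene passed at all (0%), and the difference for *Elf5* was 3.62 (adjusted p = 0.309), one of 3 of the 8 genes with an unadjusted p under 0.05. Between E9.5 and E8.5 3 genes (0.0194%) passed, none of them among the 8.

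Within cell types *Rhox5* alone of the 8 genes was called at E7.5. In 7 types with over 15 cells in each library, 11 tests of the 8 genes could be made, 7 of *Rhox5* and 2 each of *Plac1* and *Tfap2c*. Of these 5 passed, each of them *Rhox5* lower in null cells. Over all genes 120 (0.184%) of 65140 gene-by-type tests passed, 0.104% in this direction. Null cells held few *Rhox5* UMIs (5 in caudal epiblast and 5 in ectoderm, against 54 and 152 in WT cells). The gene passed the count filter through its WT libraries, so only a lower level in null cells could be called. The share of calls is therefore no support for an effect. In caudal epiblast *Rhox5* was at 5.97 and 16 CPM in WT A and B and at 0.483 and 0 CPM in null A and B (log2 fold change −4.61, SE 0.67, adjusted p = 0.000420, 0.185% of genes called in the type). In ectoderm it was at 8.38 and 17.0 against 0.251 and 0.464 CPM (−5.45, SE 0.57, adjusted p = 0.000569, 0.17% called). In intermediate mesoderm it was at 10.5 and 12.1 against 0.922 and 0.711 CPM (−3.58, SE 0.51, adjusted p = 0.000486, 0.178% called). In each of these types the null libraries were the lower ones.

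The gap was smaller in paraxial mesoderm, with 17.4 and 18.5 against 2.39 and 2.94 CPM (−2.83, SE 0.35, adjusted p = 0.000962, 0.168% called), and in mesenchyme, with 7.24 and 14.0 against 1.37 and 1.97 CPM (−2.68, SE 0.49, adjusted p = 0.0245, 0.152% called). In blood progenitors (7.07 and 31.1 against 0.908 and 0 CPM, −4.59, adjusted p = 0.115, 0.342% called) and lateral plate mesoderm (8.25 and 20.7 against 1.77 and 0 CPM, −3.56, adjusted p = 0.317, 0.12% called) the groups also lay apart without passing. The null libraries of *Rhox5* thus lay below the WT libraries in all 7 types, as in 18.5% of all gene-by-type tests, and WT A was below WT B in all 7.

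*Ttr*, which these embryonic types should lack, was apart in the same way. In caudal epiblast it was at 7.05 and 14.9 CPM in WT and at 0 in both null libraries, and in ectoderm at 6.37 and 15.5 against 0.377 and 0 CPM. It was called lower in null cells in blood progenitors, caudal epiblast, ectoderm, lateral plate mesoderm and mesenchyme. *Ttr* too passed the count filter through its WT libraries, so only a lower level could be called. These calls are therefore no support for an effect. In intermediate mesoderm, where *Rhox5* was called, 1 of the 8 visceral endoderm markers was tested and none was called. In paraxial mesoderm, where *Rhox5* had its smallest spread, *Ttr* was at 3.79 and 13.5 CPM against 0.665 and 0 CPM. Only 1 of the 8 visceral endoderm markers had counts enough to be tested in this type, so the lack of a call for *Ttr* there says nothing. The part of RNA from extra-embryonic cells in the *Rhox5* difference was not tested. *Xist* was found in 68.7% and 37.9% of the cells of WT A and B and in 2.26% and 3.06% of those of null A and B, and its part was not tested either. Without null library A 1 call was left, without WT B 2, without null B 6 and without WT A 7. Paraxial mesoderm was called in each of these settings, and *Rhox5* was below 0 in every one.

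At E8.5 13 tests of the 8 genes in 20 types gave no call (104 of 169105 tests, 0.0615%, gave one), with 2 unadjusted p under 0.05 and no call by DESeq2. At E9.5 32 tests in 37 types gave 1 call, *Plac1* higher in null YS mesothelium (387 of 324635 tests, 0.119%, gave one, 0.0554% in this direction). *Plac1* was there at 12.3, 17.0 and 11.4 CPM in WT A, B and D and at 50.7, 63.1 and 30.2 CPM in null A, C and D. Every null library lay above every WT library, as for 6.65% of genes tested in this type, and the log2 fold change was 1.81 (SE 0.27, adjusted p = 0.00112, 11 or 0.132% of 8337 genes called in this type). Here too n counts libraries, some of which may share an embryo. WT C with 14 cells and null B with 11 cells were not in the fit, at 11.1 and 62.3 CPM. The call held in each of the 15 alternatives in which the type was tested (1.57 to 2.10, adjusted p at most 0.0259), and with a minimum of over 50 cells the type was not tested.

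*Plac1* was high in the allantois. The 5 markers of the allantois and mesenchyme summed to 650 to 683 CPM in null and 583 to 736 CPM in WT YS mesothelium, with 3 tested, none called and *Hoxa13* at 0. Of this list *Hand1* was at 756, *Bmp4* at 229 and *Pitx1* at 182 CPM in E7.5 mesenchyme, so the sum does not follow the allantois alone. The part of allantois cells in the *Plac1* call was not tested. In E9.5 mesenchyme *Plac1* was at 12.0 to 16.8 CPM in WT and 16.2 to 40.2 CPM in null libraries (0.84, SE 0.29, adjusted p = 0.591, 0.0869% of genes called), which overlapped. In E8.5 YS mesothelium it was at 8.05 and 10.3 CPM in WT and 7.12 and 22.0 CPM in null libraries (0.20). In E8.5 amniotic ectoderm it was at 18.9 and 27.9 against 38.0 and 71.8 CPM (0.99, adjusted p = 0.753), and in the E8.5 allantois at 238 and 210 against 179 and 217 CPM (−0.14). In the E9.5 allantois it was at 41.4, 10.9 and 56.4 CPM in WT A, B and D and at 56.6 and 106 CPM in null A and B (0.92, SE 0.55, adjusted p = 1.00), apart as 11.9% of genes tested there were. The smaller libraries, not in that fit, were at 11.8 CPM in WT C and 25.3 and 83.4 CPM in null C and D, with which the groups overlapped. Outside E9.5 YS mesothelium *Plac1* passed in no tested type.

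**Figure D5:**
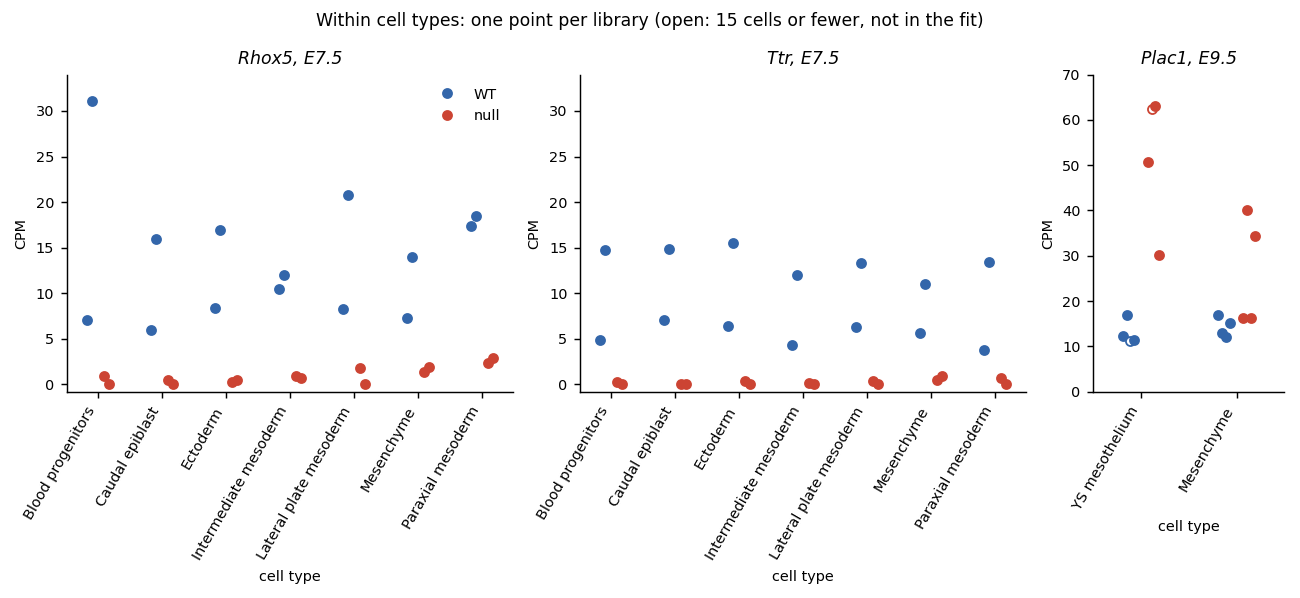
*Rhox5* (left) and *Ttr* (middle) in the 7 tested E7.5 cell types and *Plac1* in 2 E9.5 types (right), CPM on the y axes, 1 point per library, WT in blue and null in red (open points: 15 cells or fewer, not in the fit). *Rhox5* is lower in both null libraries in each type, *Ttr* follows the same pattern, and *Plac1* in YS mesothelium is higher in all null libraries.

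Other genes of the trophoblast, from lists drawn up beside the 8, were counted in the same fits. In all cells at E7.5, 4 of 15 tested genes of trophoblast stem cells and the chorion were lower in null libraries, with a median of −0.81, against 2.19% of all genes tested. They were *Esrrb* (−4.86), a nuclear receptor of stem cells, *Bmp8b* (−4.99), a signal to the germline, *Zfp42* (−3.66) and *Sox21* (−2.65). None of 7 genes of the ectoplacental cone and giant cells passed (median −0.24), and 1 of 15 epithelial genes did, the tight junction gene *Cldn4* (−3.06). Of 8 other *Rhox* and germline genes 4 were lower, *Rhox1* (−8.57), *Rhox4e* (−7.72), *Sohlh2* (−6.83) and *Stk31* (−2.75). None of 10 other X-linked genes passed (median 0.05). These lists were drawn up beside the 8 genes, and cells labelled ExE ectoderm were nearly all in the WT libraries. For genes of that tissue a lower level in the null fraction was thus given by the design. The shares called are therefore no test of *Stat3* and no support for an effect.

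At E8.5 no gene of these lists passed in all cells, nor at E9.5, where blood markers such as *Gata1* (−2.16) and *Klf1* (−3.34) were lower in null libraries. Outside the extra-embryonic labels at E7.5 none of the 5 lists had a called gene. Within E9.5 cell types *Krt19*, a keratin, was higher in null placodal ectoderm (1.55), and the homeobox gene *Pitx1* was higher there (1.03) and in the thyroid primordium (1.15). These were 1 of 178 tests of the epithelial list and 2 of 60 tests of the allantois and mesenchyme markers, against 0.119% of all gene-by-type tests.

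The genes most like each of the 8 were sought over 144 WT units of stage and cell type, by Pearson correlation of log2(CPM + 1), as a description over units that share libraries. *Tex19.1* was most like *Mageb16* (r = 0.82), *Trap1a* (0.81) and *Gm17067* (0.80), and *Rhox6* most like *Xlr5a* (0.76) and *Trap1a* (0.76). *Rhox5* was most like *Trap1a* (0.72) and *Rhox9* like *Sohlh2* (0.72). *Elf5* was most like *Fthl17a* (0.71) and *Utf1* (0.70). Without the extra-embryonic units, *Tex19.1* was at 0.45 with *Mageb16*, 0.64 with *Trap1a* and 0.46 with *Gm17067*. *Rhox6* was then at 0.51 with *Xlr5a* and 0.54 with *Trap1a*, and *Rhox5* at 0.52 with *Trap1a*, so these pairs rested in part on those units. The value was 0.01 for *Rhox9* with *Sohlh2* and 0.36 for *Elf5* with *Fthl17a*. These rested on the extra-embryonic types, whereas *Elf5* with *Utf1* was at 0.67. *Tfap2c* with its paralogue *Tfap2a* (0.63, and 0.67 without those units) did not. Neither did *Wnt7b* with the forebrain gene *Emx2* (0.61 and 0.65) or *Plac1* with *Tbrg1* (0.66 and 0.67).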

How the data were processed

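Single-cell RNA libraries (10x 3′ chemistry) of sorted chimera cells were analysed. The authors aligned reads to mm10 with Cell Ranger, added the tdTomato sequence to the annotation, and deposited raw UMI counts per gene and cell, with no normalization, for cells with over 10000 UMIs (10003 to 99964). Cell types and doublet calls (scds) are the authors'. Of 41832 cells in the matrix (192657 barcodes in the table), 3395 doublets and 596 WT-sorted singlets with a tdTomato UMI were left out. Columns with per-sample values that matched no sample numbered 0.

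Groups are those of the sample labels, and each library was put in one by the stage and sort gate in the authors' cell table, since library names match no sample title. For the same reason the embryo pool, which the study used as a block, could not be fitted.

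Counts were summed per library, over all cells, over cells outside extra-embryonic labels, or per cell type, where each genotype had 2 or more libraries with over 15 cells. They were tested with edgeR 4.0.16 (R 4.3.3; filterByExpr, TMM, robust quasi-likelihood fit, no covariate, 1 fit per stage), Benjamini-Hochberg over all genes tested (within the type for cell types). To pass, a gene needed an adjusted p under 0.05 and a log2 fold change beyond 1 in either direction. Fits left out 8174 of 29453 genes (predicted, Y-linked, haemoglobin, ribosomal protein and mitochondrial genes, tdTomato, *Tsix* and *Xist*). Replicates are libraries. Scripts were tested on simulated data. Levels and detection used Python 3.11.15 and scipy 1.17.1. Where a share of cells is 0, the limit is 3 counts.

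The members and gene lists were chosen with earlier results of these data known. All 8 genes were named in every comparison, from each list the genes that passed, and for each of the 8 genes up to 3 most correlated genes with over 10 CPM in a unit of at least 20 cells. Alternatives were DESeq2 1.42.0, RLE factors, no filter on low counts, all 16 libraries in 1 fit, null cells without a tdTomato UMI left out, WT cells with one kept, a minimum of 50 cells, unthinned cells and leaving out each library. Leaving out the barcodes shared by E9.5 WT C and D was added after seeing the data. Some genes that the rule would name are not reported here.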

Additional observations from a re-analysis of the deposited data

Results flagged for a closer look

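In cells outside extra-embryonic labels, E9.5 null library A stood apart from the other 3 null libraries in 3 genes. *Rhox6* was at 0.563 CPM there against 0 to 0.0435 CPM, *Rhox9* at 0.527 against 0.0145 to 0.0413 CPM, and *Tex19.1* at 0.108 against 0.0110 to 0.0275 CPM. In each the gap to the next library was above Dixon's 95% critical share of the range. Chance exceeds that value in about 1 of 20 groups, and 32 groups of 4 libraries were looked at. The 4 PGCs of this library held 83.3% of these *Rhox6* UMIs, 95.9% of *Rhox9* and 86.7% of *Tex19.1*. With PGCs left out as well, the library was at 0.0940, 0.0217 and 0.0145 CPM.

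The effect of genotype on *Elf5* outside extra-embryonic labels differed between E9.5 and E7.5 by a log2 value of 4.38 (interaction contrast in edgeR, adjusted p = 0.0317), with null below WT in both null libraries at E7.5 and above WT in all 4 at E9.5. Neither stage passed in its own fit. WT libraries held 281 cells labelled ExE ectoderm at E7.5 and 9, in library A, at E9.5. The part of RNA from such cells was not tested. The call for the difference was lost without any of 13 of the 16 libraries.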

How the results depend on the processing

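No paired analysis was possible because no library name equals a sample title, so no library carries a replicate number. With 2 libraries a genotype at E7.5 and E8.5, calls moved with single libraries (with 1 left out, all other 15 were fitted together and a lone library was assumed to vary like the rest), and *Rhox6*, *Rhox9* and *Elf5* outside the ExE ectoderm rest on few UMIs. Of the 8 genes, 7 were called in all cells at E7.5, 3 with no filter on low counts and 3 to 5 with 1 library left out. Outside extra-embryonic labels at E7.5 none was called, against 2 with DESeq2, 2 with no filter, 1 with all 16 libraries in 1 fit and 0 to 1 with 1 library left out. Within cell types there were 5 calls at E7.5 (8 with no filter, 1 to 7 with 1 library left out), 0 at E8.5 (1 with no filter, 0 to 2) and 1 at E9.5 (1 to 1, and 0 with over 50 cells, where the type was not tested). For the stage differences, leaving out 1 library gave 0 to 1 call both for E9.5 against E7.5 (1 call) and for E8.5 against E7.5 (0 calls, 1 without E8.5 null A). *Rhox5* in ExE ectoderm was at 1627 CPM as a mean over single cells (1610 from sums), and unthinned detection was 98.9% for *Elf5*, 97.5% for *Tfap2c*, 73.3% for *Rhox6*, 54.8% for *Rhox9*, 94.0% for *Wnt7b* and 98.2% for *Tex19.1*. Fold changes that changed sign were never called. In all cells these were *Plac1* at E7.5 (−0.78 to 0.26 with 1 library left out, above 0 without null A or WT A), *Elf5* at E8.5 (−0.82 to 0.50, above 0 without null A), *Rhox5* at E8.5 (−0.47 to 0.67, below 0 without null B or WT A, and −1.02 without null cells lacking a tdTomato UMI), *Plac1* at E8.5 (−0.26 to 0.76, below 0 without null B) and *Plac1* at E9.5 (−0.044 to 0.41, below 0 without null D, WT B or WT C). Outside the labels they were *Plac1* at E7.5 (−0.61 to 0.42, above 0 without null A or WT A), *Elf5* at E8.5 (−0.82 to 0.51, above 0 without null A) and *Plac1* at E8.5 (−0.27 to 0.77, below 0 without null B). The cause was not tested.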
